A study of Homo sapiens with 4 samples.

Results

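The RNA places recovered by the even and the odd set of probes against ZNF609 were compared with each other, to ask how far one probe set's peaks were found again with the other. The members were all 502 peaks of the even list and all 542 peaks of the odd list, 1044 of the 1766 peaks in the 3 lists of the series. A peak is a stretch of the genome in which the authors' peak caller found more reads than it expected. Both pull-downs used RD, an established line of embryonal rhabdomyosarcoma, a tumour of the skeletal muscle lineage, and the labels name no drug, knockdown or other change to the cells. The even and odd probes were biotinylated antisense oligonucleotides against exon 2 of ZNF609, and the control probes were directed at the bacterial LacZ mRNA. Each probe set gave 1 library, so no value below has a replicate error and no test between the probe sets was possible. A total lysate sample was not analysed here.

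Circular RNAs form when the splicing machinery joins the end of an exon back to its own start or to that of an earlier exon. The resulting closed loop has no free ends and resists exonucleases. circZNF609 is such a loop made of exon 2 of ZNF609, and it has been studied in myoblasts and in rhabdomyosarcoma. Exon 2 is also part of the linear ZNF609 mRNA, so probes inside it can pair with both forms. In a pull-down with tiled antisense probes, the bait and the RNA held to it are captured on streptavidin beads. Probes along a bait are commonly dealt in turn into an even and an odd pool. Both pools can pair with the same bait, while an RNA that pairs directly with a probe of one pool need not pair with any probe of the other.

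The even list covered 137360 bases and held 482418 reads in peaks, and the odd list covered 144500 bases and held 279415 reads. Reads per bin of 170 bases, the strength of a peak used throughout, ran from 108 to 21973 with a median of 293 in the even list. They ran from 105 to 2324 with a median of 221.5 in the odd list. These values are not scaled to library size, so strengths were compared between lists only as percentile ranks, on which the strongest peak of a list is at 100 and the weakest at 0. Of 18 skeletal muscle markers 4 had a peak in the even or the odd list (DES, TNNT1, TNNT2 and ACTC1), and of 9 markers of blood, epithelium, endothelium and neurons 0 had one. A peak list shows capture, so a gene without a peak says nothing of its level.

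The target of the probes was recovered at the same place by both sets. In ZNF609, which encodes a zinc finger protein, an even peak was at chr15:64499361-64500040 on GRCh38 and an odd peak at chr15:64499531-64500040, inside the even one. With 704 reads per bin the even peak was number 77 of 502. With 394 the odd peak ranked 109.5 of 542, a tied rank. Their percentile ranks were 84.8 and 79.9, so the bait was in the upper part of both lists and at the top of neither. The odd list had further ZNF609 peaks of 174 and 230 reads per bin, at 64670381-64670550 and 64673781-64674120 of the same chromosome, where the even list had none. CKAP5, which encodes a microtubule polymerase of the mitotic spindle, had identical peaks in both lists at 2 places. At chr11:46795561-46795730 the even value was 423 reads per bin and the odd value 269, at percentile ranks of 67.7 and 62.4. At chr11:46790461-46790630 the values were 376 and 197, at percentile ranks of 64.4 and 42.9.

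Most peaks of either list were absent from the other. Of the 502 even peaks 93 shared at least 1 base with an odd peak, which is 18.5% (exact Clopper-Pearson 95% interval 15.2 to 22.2). Of the 542 odd peaks 94 shared at least 1 base with an even peak, which is 17.3% (14.2 to 20.8). The intervals cover counting error only. Measured in the same way, 14.7% of even peaks (74 peaks, 11.8 to 18.1) and 16.2% of odd peaks (88 peaks, 13.2 to 19.6) overlapped a peak of the LacZ control list. The LacZ list, from probes with no human target, was longer, with 722 peaks over 205870 bases, and so offered more bases to overlap. The shares are therefore not matched for list size. The intervals of the shares with the other ZNF609 list and with the LacZ list overlapped. By reads, the matched peaks held 33.8% of the even and 30.5% of the odd reads in peaks. The matches made 94 pairs, since 1 even peak in GPATCH4 covered 2 odd peaks.

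Stronger peaks were matched more often, in both lists. When each list was divided by reads per bin into 4 groups of nearly equal size, the share of even peaks with an odd match went from 11.2% in the weakest group through 11.1% and 20.8% to 31.0% in the strongest. The odd list gave 10.3%, 8.89%, 19.3% and 30.9%. Overlap with LacZ peaks followed the same order of strength, with 4.8%, 11.1%, 18.4% and 24.6% of even peaks and 10.3%, 12.6%, 14.8% and 27.2% of odd peaks. Among the 25 strongest peaks, 14 even peaks (56.0%) and 16 odd peaks (64.0%) had a match. Peaks of 3 or more bins were matched in 34.9% of cases in each list, 15 of 43, against 15.6% of even and 13.7% of odd peaks of 1 bin. Matched even peaks had a median of 423 reads per bin and unmatched ones 267. In the odd list these medians were 324.75 and 204.

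**Figure D1:**
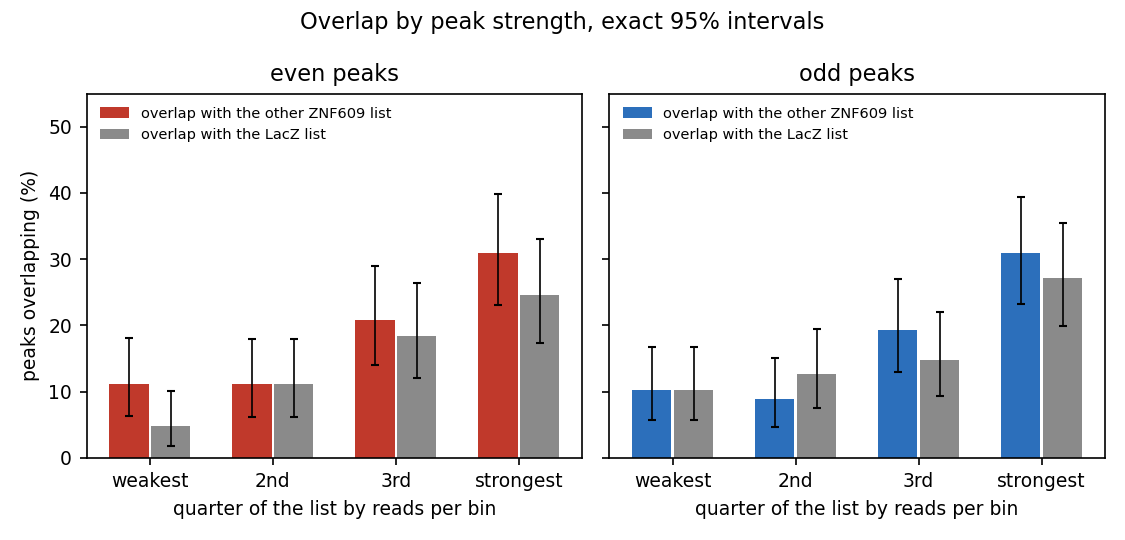
The share of even peaks (left, red) and odd peaks (right, blue) that overlapped the other ZNF609 list, in percent, in 4 groups of each list ordered by reads per bin, beside the share that overlapped the longer LacZ list of 722 peaks (grey). Error bars are exact 95% intervals for counting error, and the strongest group reached 31.0% (even) and 30.9% (odd) while the grey bars reached 24.6% and 27.2%.

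The strongest single peaks show both outcomes. The first place of the odd list was TRIM44, a gene of the tripartite motif family, with 2324 reads per bin at chr11:35663281-35663620. An even peak covered it with 517 reads per bin, number 123 in its list, and a LacZ peak lay there too. The first place of the even list was a peak in ANP32B with 21973 reads per bin at chr9:98011121-98011460, and no odd peak overlapped it. GPI, which encodes a glycolytic enzyme, held places 6, 8 and 10 of the even list with 3387, 2371 and 2228.5 reads per bin and had no odd peak anywhere in the gene. HMGN1, which encodes a nucleosome-binding protein, held place 4 of the odd list with 1768 reads per bin, and no even peak was found in it.

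Where the lists did meet, the peaks often spanned the same bins. In 52 of the 94 pairs the even and odd peaks had the same start and end, and 28 of these were single bins. In 19 pairs the even peak lay inside the odd one, in 22 the odd peak lay inside the even one, and in 1 pair, in PLXNA1, each reached past the other. Of the 42 pairs with different edges 37 had 1 end in common. All bins of both lists sit on one grid of 170 bases, so equal edges say only that the same bins were taken. On this grid a peak that lies inside one wider by 1 bin must share an end with it.

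The order of strengths was shared in part. Over the 94 pairs the Spearman correlation of the ranks was 0.467 and Kendall's tau was 0.325, as a description across places that share 1 library per side. The ranks differed by a median of 16.3 percentile points, with an interquartile range of 6.49 to 32.9 and a full range of 0.311 to 76.7. In 33 pairs the ranks were within 10 points of each other and in 10 pairs they were more than 50 points apart. The even peak ranked higher in 49 pairs and the odd peak in 45. The 74 even and LacZ peak pairs gave a correlation of 0.353 and a median difference of 15.6 points, and the 88 odd and LacZ pairs gave 0.219 and 19.97 points. Of the 94 even and odd pairs, 40 lay where the LacZ list also had a peak. These had median percentile ranks of 79.4 (even) and 85.9 (odd), against 59.0 and 61.8 for the other 54 pairs. Within each class the correlation was lower than over all pairs, 0.399 with a LacZ peak and 0.383 without.

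**Figure D2:**
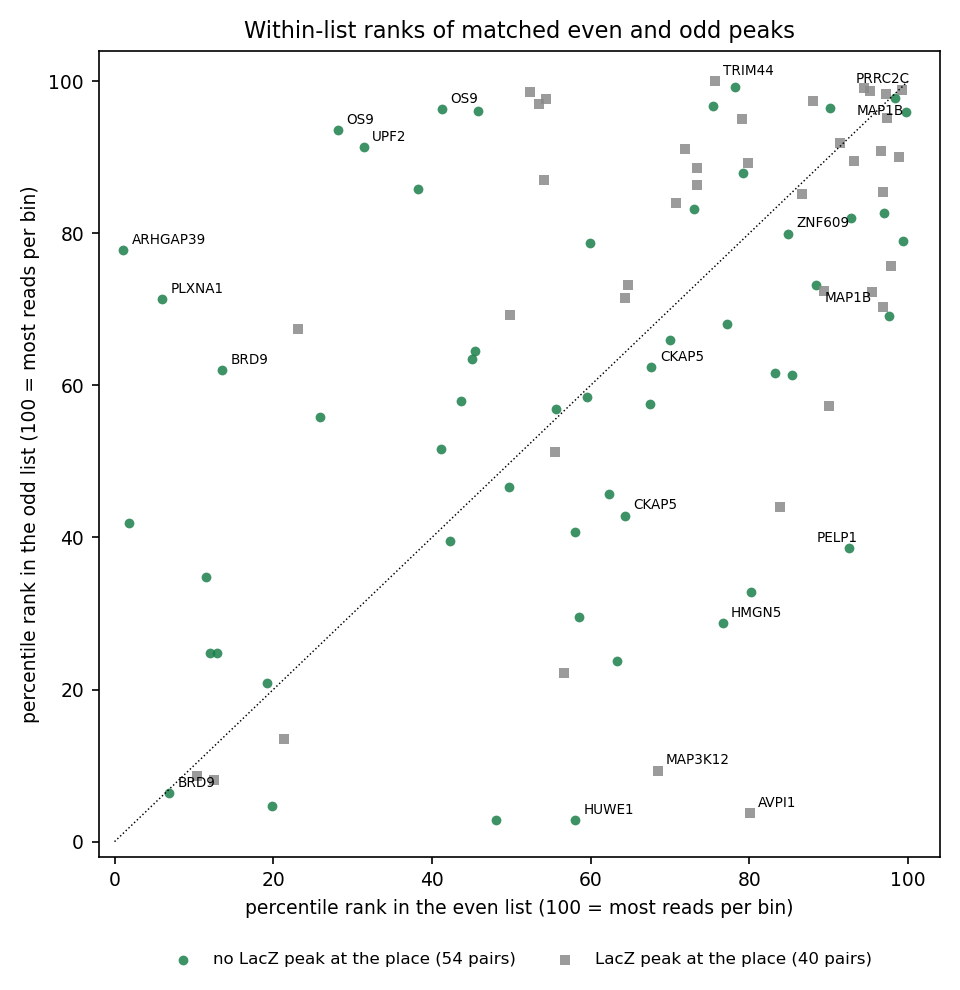
Percentile rank of each matched pair in the even list (horizontal) and in the odd list (vertical), where 100 is the peak with most reads per bin, and the dotted line marks equal ranks. Green circles are the 54 pairs without and grey squares the 40 pairs with a LacZ peak at the place, and PRRC2C and MAP1B sit at the upper right corner while AVPI1 (lower right) and ARHGAP39 (upper left) lie farthest from the line.

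Rank differences went with the widths of the paired peaks. Width and rank come from the same reads of a library, so they are not separate measurements. Where the even peak spanned more bins (22 pairs) it ranked higher in 19, by a median of 11.0 points. Where the odd peak spanned more bins (19 pairs) it ranked higher in 16, and the median of even minus odd was -40.1 points. With equal widths (53 pairs) the split was 27 to 26 and the median 0.509 points. The identical peaks had a correlation of 0.621 and a median difference of 13.5 points, against 0.241 and 22.6 points for the 42 pairs with other edges. In reads per bin, unscaled, the even value exceeded the odd value in 37 of the 52 identical peaks. The log2 ratio of even to odd had a median of 0.42, an interquartile range of -0.04 to 1.07 and extremes of -2.05 and 4.25. The counting error of one such ratio, from read counts taken as independent, had a median SE of 0.091. Of the 52 ratios 8 had a 95% counting interval that reached the median. The cause of the spread was not tested, and how much repeated pull-downs with the same probes would differ was not measured here.

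The pairs at the top of both lists came from genes of several kinds. Where values of one place are given together from here on, the even value comes first unless stated otherwise. PRRC2C, an RNA-binding protein of stress granules, had the highest mean rank: 6685 reads per bin at number 5 in the even list and 1268 at number 7 in the odd list. MAP1B, a microtubule-associated protein best known from neurons, followed with 2243 reads per bin at number 9 and 1091 at number 13. PTMS, a small acidic nuclear protein, had 1750 reads per bin at number 15 and 1199 at number 10. In CHAF1A, the large subunit of a chromatin assembly factor, the values were 1768 at number 14 and 769.5 at number 27. DNMT1, the maintenance DNA methyltransferase, had 898 at number 50 and 920 at number 20. A stronger odd peak of DNMT1, at chr19:10166681-10166850, was number 3 of its list with 1884 reads per bin. No even peak overlapped that one. MAP1B, the ANP32B pair and DNMT1 were the only ones of the 10 pairs with the highest mean rank that had no LacZ peak at the place. In 26 pairs from 20 genes both peaks were in the strongest of the 4 groups, in 8 pairs both were in the weakest, and in 1 pair each the even or the odd peak was in the strongest while its partner was in the weakest.

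In the pairs with the largest disagreement, the higher peak lay between percentile ranks of 58.1 and 96.3 of its list and the lower one between 1.10 and 41.3. AVPI1 had 593 reads per bin with even and 115 with odd probes, 76.3 points apart, over identical bins. MAP3K12, a kinase of axon injury signalling, had 432.5 and 124 (59.1 points). HUWE1, a ubiquitin ligase, had 336 and 114 (55.2 points), and PELP1, a scaffold protein of ribosome assembly, had 957 and 188 (54.0 points). In the other direction, ARHGAP39 had 113 reads per bin with even and 374.5 with odd probes, a difference of -76.7 points. OS9, a lectin of endoplasmic reticulum quality control, differed by -65.4 points at one place (198 and 663 reads per bin) and by -55.0 at another (245.5 and 904). PLXNA1, a semaphorin receptor, had 135.5 and 323.5 (-65.4 points), and UPF2, a factor of nonsense-mediated decay, had 210 and 597 (-59.9 points). Of these places, AVPI1 and MAP3K12 had a LacZ peak as well. In the 5 odd-ranked pairs the odd peak was the wider one except in PLXNA1, where both spanned 2 bins.

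Counted by gene, 545 annotated genes had a peak in at least 1 of the 2 lists and 87 of them had a peak in both, which is 16.0%. These were 28.3% of the 307 genes with an even peak and 26.8% of the 325 genes with an odd peak. An overlapping pair was found in 66 of the 545 genes (12.1%), and in 36 of those 66 the LacZ list also had a peak somewhere in the gene. Of all 87 shared genes 44 had such a LacZ peak, and the share among the 545 genes is not given here. In the remaining 21 shared genes no even peak overlapped an odd one. The gene groups below were put together with earlier results of these peaks known, so the counts describe the groups and do not set them apart from other genes.

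Among microtubule and spindle genes 13 had a peak, and 4 had an overlapping pair: CKAP5, MAP1B, DYNC1I2, an intermediate chain of the dynein motor, and DCTN1, a dynactin subunit. DYNC1I2 had 292 reads per bin with even and 207 with odd probes, at percentile ranks 3.12 points apart. DCTN1 had 267 and 277.5, with the odd peak 19.1 points higher. MAP1B and DCTN1 had LacZ peaks elsewhere in the gene, and the other two genes had none. Even peaks alone were found in MAP1A, MAP7D3, STMN1 and MACF1, and odd peaks alone in MAP4, CLIP1, TPX2, KIF1A and NUMA1. Of 7 centrosome, kinetochore and cohesin genes with a peak, RAD21, the cleavable cohesin subunit, had overlapping pairs. Its peaks had 722 and 648.5 reads per bin in the even and 267.5 and 268 in the odd list, and LOC112268030 is annotated over the same bases.

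Genes of the actin cytoskeleton were recovered by both sets in 8 of 15 cases. MYH9, a nonmuscle myosin heavy chain, had 314 reads per bin with even and 484 with odd probes, with the odd peak 33.0 points higher. EZR and RDX, which tie actin filaments to the membrane, had near-equal ranks: EZR had 376 and 326 reads per bin, 7.16 points apart, and the RDX places differed by 0.978 and 2.66 points. PLEC, a large linker of filaments, had 245 and 227 reads per bin. MYO10 had weak pairs in both lists, at 149 and 178.5 and at 146 and 123. A LacZ peak lay at the MYH9 and EZR places and at the second MYO10 place, and 4 of the 5 genes with pairs, all but RDX, had a LacZ peak somewhere. AHNAK, CALD1 and MYH10 had peaks in both lists that did not overlap.

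In the group of muscle sarcomere genes and desmin 5 genes had a peak, 3 of them with overlapping pairs. In TNNT2, the cardiac troponin T that is also made in immature skeletal muscle, both lists had peaks of the same bins at 5 places. The even values there were 381, 936, 1276, 786 and 575 reads per bin in order of coordinates, and the odd values were 336, 601, 1264, 1051.5 and 755. The odd peak ranked higher at every one of the 5 places, by 0.45 to 16.0 points, and each of the 5 had a LacZ peak. DES, the muscle intermediate filament desmin, had 577.7 and 266 reads per bin in the even list and 501 and 273 in the odd list, with no LacZ peak. TNNT1, slow skeletal troponin T, had 345 and 387. ACTC1 had an even peak alone, and RYR1, the calcium release channel of muscle, an odd peak alone.

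The acidic nuclear and high-mobility-group genes had overlapping pairs in 6 of 10 cases. ANP32B, an acidic histone chaperone, had even peaks of 13307 and 7375 reads per bin where the odd list had 857 and 387.5. The even list held a further 4 peaks in this gene and the odd list none. ANP32A, its close relative, had 958.5 and 421, HMGB2, a DNA-bending protein, had 1704 and 427, and HMGN5, a nucleosome-binding protein, had 531 and 165. NCL, nucleolin, had 3235.5 and 550.5 at a place where SNORD82 is also annotated. In these 5 genes the even peak ranked higher, by 3.87 to 47.9 points. PTMS was the exception, with the odd peak higher by 1.13 and 30.0 points at its 2 places. A LacZ peak lay at the NCL place and at the stronger PTMS place, and the remaining 4 genes had none.

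**Figure D3:**
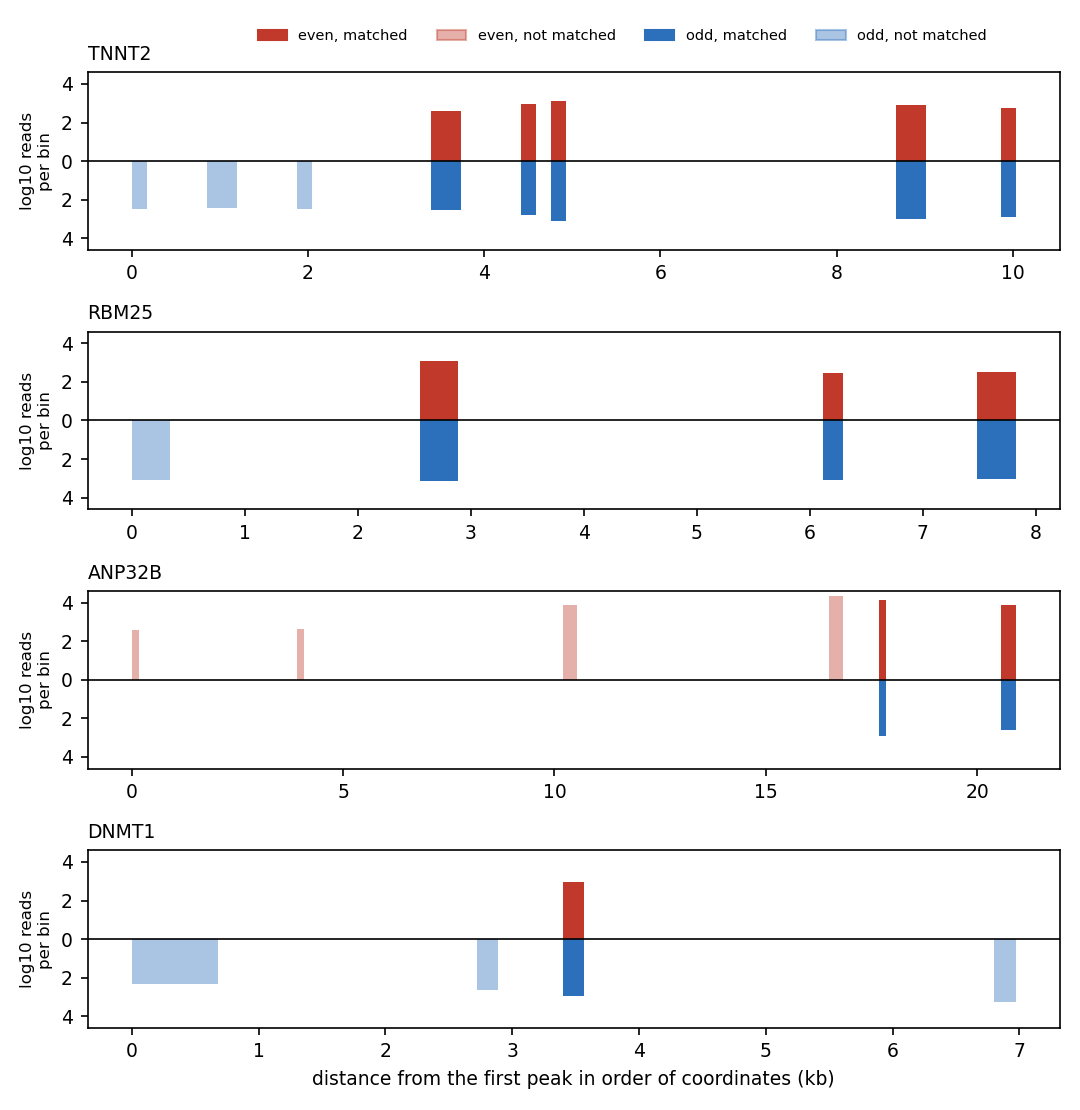
Peaks of the even list (red, upward) and the odd list (blue, downward) along TNNT2, RBM25, ANP32B and DNMT1, as distance in kb from the first peak in order of coordinates; the bar height is log10 of the unscaled reads per bin, so a bar of height 0 would be 1 read. Full colour marks matched and pale colour unmatched peaks: the 5 even peaks of TNNT2 each have an odd partner, while 4 of the 6 even peaks of ANP32B have none.

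Of 15 genes of ribosome assembly in the nucleolus 6 had overlapping pairs. PDCD11, needed for ribosomal RNA processing, had 1608 and 567 reads per bin and was the only one of the 6 genes with a LacZ peak, which lay at the same place. PES1, a subunit of a complex that matures the large ribosomal subunit, had 480.5 and 260.5 in the even and 430 and 253 in the odd list. KNOP1 had 324 and 247, NOM1 had 369.5 and 154, and MDN1, the giant ATPase of ribosome assembly, had 363 and 204 at one place and 151 and 156 at another. Among RNA helicases DDX27 was the only one of 7 genes with a peak that both sets recovered, with 1779 and 542 reads per bin in the even and 302.667 and 298 in the odd list. DDX1, DDX21, DDX23, DDX46 and DHX38 had even peaks alone and DDX18 an odd peak alone.

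Splicing and RNA-binding genes were the most numerous with a peak, 25, and 4 of them had overlapping pairs. RBM25, a splicing regulator, had odd peaks of 1318, 1259 and 1060.5 reads per bin, at numbers 6, 9 and 14 of that list, and a LacZ peak lay at each of the 3 places. The even peaks of the same bins had 1151.5, 305 and 315, at ranks 29, 239.5 and 229.5. One of the 3 places was thus strong in both lists and the others were in the middle of the even list. SRRM1, a coactivator of splicing, had odd values of 1630.5 and 926.5 and even values of 562.5 and 515, so that the odd peak ranked higher by 21.0 and 21.2 points. PPIG, a nuclear cyclophilin, had 421.8 and 250. PNN and SRSF11 had peaks in both lists at different places, 11 genes had even peaks alone and 8 had odd peaks alone.

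In translation and nonsense-mediated decay, 4 of 8 genes with a peak had overlapping pairs. EIF3A, the largest subunit of an initiation factor, had 3 places with even values of 462.5, 586 and 169 reads per bin and odd values of 596.3, 521.5 and 116. ABCF1, an ATP-binding protein of translation initiation, had 336 and 320.6 in the even list against 192 and 226.3 in the odd list. A LacZ peak lay at the first 2 of the EIF3A places and at the second of the ABCF1 places. NAA15, a subunit of the N-terminal acetyltransferase on ribosomes, had 284 and 114. All 8 genes had an even peak, and no gene of this group had an odd peak alone.

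Chromatin and transcription genes had a peak in 20 cases and overlapping pairs in 4, the probes' own target included. CREBBP, a histone acetyltransferase, had 3 such places with even values of 482, 482 and 1287.5 reads per bin and odd values of 507, 477.5 and 330.5, each with a LacZ peak. CHD4, the helicase of the NuRD complex, had peaks in both lists at different places. Among extracellular matrix and adhesion genes 8 had a peak, and the PLXNA1 pair above was the only overlap.

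In 22 genes there were 2 or more pairs, 50 pairs in all, and in 17 of these genes the pairs differed in one direction. Over all 94 pairs the even peak ranked higher in 49 and the odd peak in 45. How many genes would agree in direction by chance was not assessed. The even peak ranked higher in every pair of 10 genes and the odd peak in every pair of 7, while BRD9, CREBBP, EIF3A, MDN1 and MYO10 had pairs in both directions. The pairs of one gene spanned a median range of 15.5 points. In SRRM1 the 2 differences were 0.207 points apart, in CHAF1A 1.54, in RDX 1.68 and in RAD21 2.47. In ANKRD11, a chromatin regulator, the even peak ranked 1.41 and 16.96 points higher at 2 places that also had LacZ peaks. The widest range was in BRD9, a subunit of a chromatin remodelling complex, whose places differed by -48.4 and 0.509 points. Places in one gene can share one transcript, so they are not independent measurements of the probe sets, and the 2 pairs of GPATCH4 share one even peak.

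**Figure D4:**
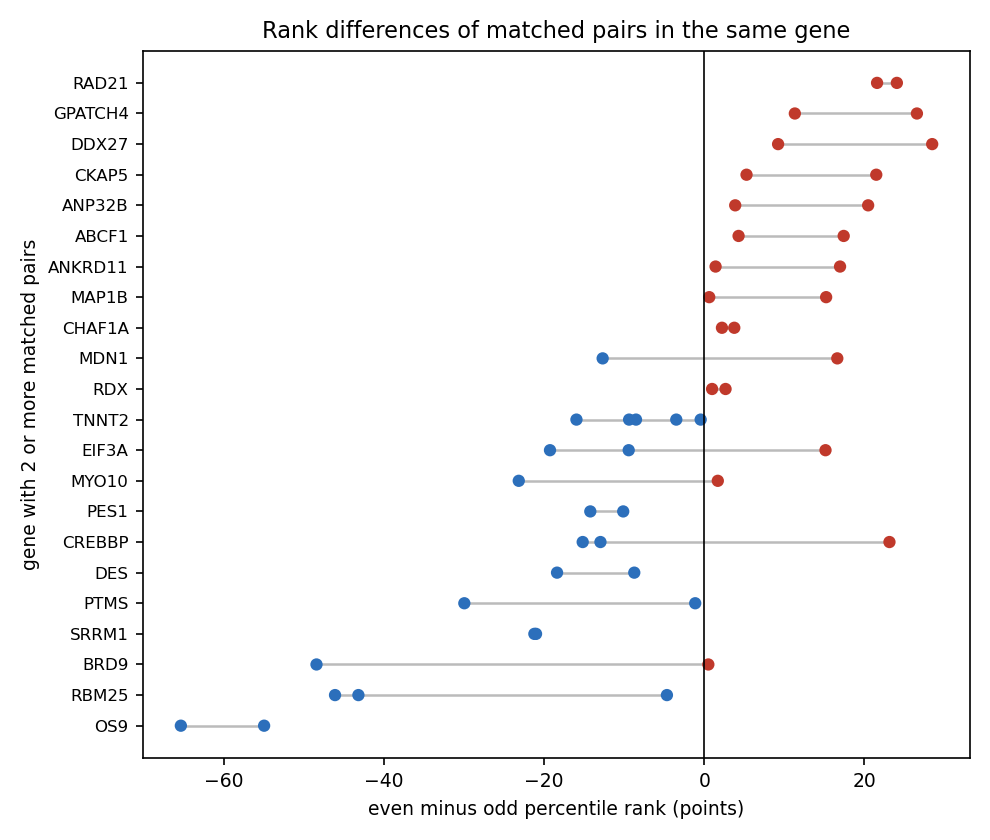
Even minus odd percentile rank, in points, for each matched pair of the 22 genes with 2 or more pairs, ordered by the gene's median. Each point is 1 pair, red where the even peak ranked higher and blue where the odd peak did; the points of one gene lie a median of 15.5 points apart, and 5 genes have points on both sides of 0.

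In 21 genes both probe sets had peaks but at no common place. The gap between the nearest even and odd peak had a median of 6970 bases, an interquartile range of 1700 to 23460 and a range of 0 to 147900. The gap was under 1000 bases in 4 genes, between 1700 and 8500 in 8 and 13430 or more in 9. In NES, the intermediate filament protein nestin of muscle and neural progenitors, the peaks touched without sharing a base. The odd peak ended at 156671830 and the even one began at 156671831 on chromosome 1, with 415.25 reads per bin for the odd and 716 for the even peak. PNN, a splicing-associated nuclear speckle protein, also had touching peaks, with 138 reads per bin in the odd and 233 in the even list. LRRFIP1 had a gap of 510 bases and BRPF1, a scaffold of histone acetyltransferase complexes, one of 850.

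Longer gaps separated the remaining genes. CEP250, a linker protein of the centrosomes, and GPATCH8 had gaps of 1700 bases, MYH10, a nonmuscle myosin heavy chain, 2380, and EIF4G1, the scaffold of cap-dependent initiation, and SRSF11, a splicing factor, 5100 each. In COL4A1, a collagen of basement membranes, 4 even peaks of 146 to 272 reads per bin lay within one stretch and 3 odd peaks of 113, 614.7 and 431.5 in another, 28730 bases away. SUPT6H, a histone chaperone of transcription elongation, had a gap of 25330 bases and RSF1, a chromatin remodelling factor, 33320. KCNQ5, a potassium channel, had the longest gap, 147900 bases between an even peak of 256.5 reads per bin and an odd peak of 172. The distances are along the genome and include introns, so the distance in the spliced RNA can be shorter. Of the 21 genes 9 had 1 peak on each side, and in 8 the LacZ list had a peak too.

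**Figure D5:**
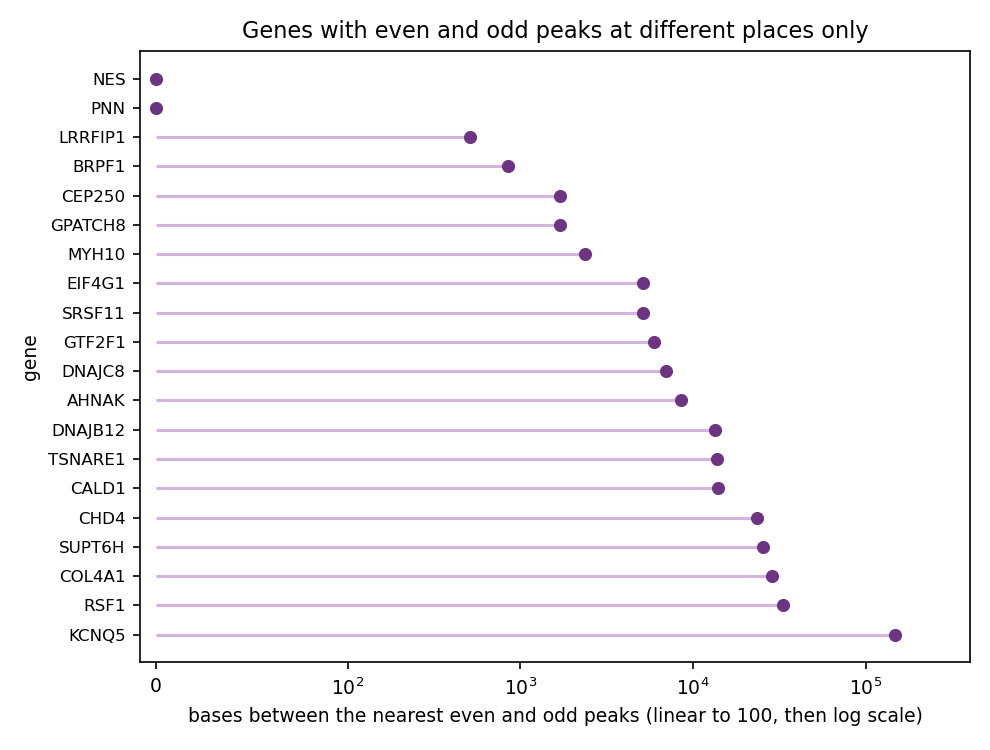
Bases between the nearest even and odd peaks in 20 of the 21 genes that had peaks in both lists at different places only; the horizontal axis is linear to 100 bases and logarithmic beyond. NES and PNN lie at 0, the median over the 21 genes is 6970, and KCNQ5 is at 147900.

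The peaks without a partner were mostly in genes that the other list did not hold at all. Of 409 unmatched even peaks 64 (15.6%) lay in a gene with an odd peak, and 10 of them were within 1000 bases of it. Of 448 unmatched odd peaks 74 (16.5%) lay in a gene with an even peak, 19 of them within 1000 bases. Nearly all peaks lay in annotated genes, 480 of 502 even and 536 of 542 odd peaks. All matched peaks did, and the 22 even and 6 odd peaks outside genes were unmatched. In the deposited column 8, an unnamed score, 13.4% of unmatched and 2.15% of matched even peaks contained a bin with a fixed value of 0.01, and in the odd list the shares were 4.46% and 2.13%. The sources used here do not say what this score measures. The matched even peaks with such a bin were that of ZNF609, the probes' own target, and the CREBBP peak at chr16:3849311-3849650. Without the peaks that held such a bin, 20.2% of 445 even and 17.5% of 520 odd peaks had a match. The rank correlation of the pairs was then 0.484, with the ZNF609 pair left out.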

How the data were processed

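RNA pull-downs from RD cells were sequenced with 1 library per probe set. Per the submitters' processing notes, the tools were STAR 2.5.2b, bcl2fastq 2.0.2, Trimmomatic, SAMtools, Picard and bedtools and the build was GRCh38. The sources used here do not give their settings. The file names give Piranha as the peak caller, run per library. The deposited lists have no header. The signal deposited by the authors was read as reads per bin of 170 bases, or its mean over joined bins, unscaled. The deposited p-value of each peak was below 0.01, and it was used in an alternative ranking. The deposited column 8 is an unnamed score.

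Peaks were matched when they shared at least 1 base, strand ignored, and ranked within each list by reads per bin (ties averaged). Genes were assigned by RefSeq spans on GRCh38.p14, taking the gene with most overlapping bases. Coordinates count from 1. Exons were not used, so a peak's place in an exon, intron or untranslated region is not given. No strand was kept, so overlapping genes cannot be told apart (40 even and 44 odd peaks lay in several genes). Intervals are exact Clopper-Pearson 95% intervals. Total library depth is unknown. The scripts used Python 3.11.15, pandas 2.3.3 and SciPy 1.17.1 and were tested on simulated lists.

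Named were ZNF609, CKAP5, the 10 pairs of highest mean rank, the 5 largest differences each way, the 5 smallest among pairs whose mean rank was above the median, genes with 2 or more pairs, and the 8 smallest and 5 largest distances. Members of the 11 gene lists, the strongest peaks and peaks at gene starts are named as well. The members and lists were chosen with earlier results of these data known. Of the 62 splicing symbols 61 were annotated. Some genes chosen by these rules are not reported here.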

Additional observations from a re-analysis of the deposited data

How the results depend on the processing

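Of 52 values recomputed under other settings 41 stayed within set limits of the reported ones, 11 moved and 0 reversed. Only the rank correlation could reverse, because the other values cannot be negative. The limits were 0.1 for the rank correlation and a factor of 1.5 for gene counts. With shared bases of at least 50% of each peak, 28 genes had peaks at different places only. Against 21 as reported, this counted as close. Median distances counted as close from 1700 to 23460 bases, so their staying close says little. Keeping peaks with a deposited p-value below 0.001 gave a matched share of 12.1% of even peaks, 16 genes in both lists, 3 genes with peaks at different places only and a rank correlation of 0.187. Keeping peaks that overlapped no LacZ peak, a setting chosen after seeing the data, gave matched shares of 12.6% (even) and 11.9% (odd). The rank correlation was 0.140 when peaks were ranked by p-value, 0.732 over pairs of single bins and 0.621 over identical peaks. The median rank difference was 23.1 points when ranked by p-value and 11.6 over pairs of single bins. For the other moves, the cause was not tested; the p-value limit leaves fewer peaks by construction. No paired analysis was possible because each probe set has 1 library. The lists hold peaks only, so a place without a peak may have had reads below the caller's limit, and total depth is unknown.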

Other observations

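Strand was known for the genes of 376 of 480 even and 444 of 536 odd peaks in genes, of which 76 and 77 were matched. These are the even and odd sides of the same pairs, so the lists do not give separate results. From the gene's start, matched peaks had a median place of 74.5% (even) and 76.6% (odd) of the way. Unmatched peaks had 61.3% and 68.6%. The lower quartiles were close, at 37.6% and 38.5% for matched against 37.2% and 38.7% for unmatched peaks. The last 20% of the gene span held 47.4% of matched and 30.0% of unmatched even peaks, and 48.1% and 33.8% of odd peaks. The first 20% also held more of the matched peaks, 15.8% against 10.7% (even) and 15.6% against 13.6% (odd). Gene spans include introns and alternative ends.

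Peaks at gene starts were looked for in the 300 bases from 250 before to 50 after the annotated start, and few were found. Starts were not at hand for every gene. Strand was known for the genes of 76 of 93 matched even and 77 of 94 matched odd peaks, so the counts here are lower limits. The even list had 6 such peaks (1.195% of 502) and the odd list 16 (2.95% of 542). Of the matched peaks 0 were found there. The approximate upper 95% limits, taken as 3 divided by all 93 and 94 matched peaks, were 3.23% and 3.19%. These limits are too low, since not every start was known. The odd peak of the PLEKHA4 pair, at chr19:48868031-48868710, reached past the end of the gene span at 48868617. The strand of PLEKHA4 was not known, so this place was not judged. The strongest odd peaks found at gene starts were those of HMGN1, at rank 4 of 542 with 1768 reads per bin, and SURF6, a nucleolar protein, at rank 46 with 599. The strongest even peak was in EPHA7, an ephrin receptor, at rank 92.5 of 502 with 615. Chance was not assessed for either pattern.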
